A study of Mus musculus with 12 samples.

Results

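Of the 12 arrays of the series, 8 were medulloblastomas (MBs), tumors of the cerebellum, and 3 of these (MB_630, MB_794 and MB_1224) were listed by the study with a copy number gain of Myc. The other 5 (MB_1187, MB_1197, MB_1206, MB_1207 and MB_706) were listed without one. The comparison is of these 3 against these 5 across all genes, beyond Myc and its direct neighbors. All 8 tumors arose in mice that carried a Nestin-Cre transgene, which is active in neural progenitors of the whole nervous system, and lacked p53. The 3 tumors with the gain and MB_1187, MB_1197 and MB_1207 came from mice with a conditional and a null allele of Xrcc4 (c/-), and MB_1206 and MB_706 from mice with both alleles conditional (c/c). XRCC4 joins broken DNA ends. Complex genome rearrangements were listed on chromosome 15 for MB_794 and MB_1224 and on other chromosomes for MB_1206, MB_1207 and MB_706, and none for MB_630, MB_1187 and MB_1197. A gain of Mycn was listed for every tumor but MB_1206. The labels call the MBs brain tissue, but the study's methods name 6 of the 8 (all but MB_1187 and MB_706) as sources of cultured cells. Which material reached the arrays was not settled by the sources used here.

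MYC is a transcription factor that binds DNA as a dimer with MAX, most strongly at the E-box CACGTG, and competes there with repressive MXD and MNT dimers. It is known to raise the genes that make ribosomes, nucleotides and other material for growth. Myc sits on mouse chromosome 15, and a gain of its region can carry many other genes with it. In human MB, gains of MYC mark a group of tumors with poor outcome. The tumors with the gain were therefore compared for Myc's partners, for its known targets, and for the genes that lie on the same chromosome.

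Levels are log2 values of an Affymetrix mouse array, averaged over the probe sets of a gene, and 18193 genes were measured. A difference is the mean of the 3 tumors with the gain minus the mean of the 5 without, in log2 units. Across genes, the tumors correlated with each other at 0.972 to 0.992. Tumor MB_706 stood apart in RNA quality, with its control transcripts brighter at the 3' than at the 5' end by 2.93 log2, against 0.56 to 0.82 in the other tumors. Each array was 1 tumor, with no repeat array, so array error cannot be told apart from differences between tumors. Factors of granule progenitors averaged 8.84 to 9.06 with the gain and 8.72 to 9.07 without, so all 8 arrays carried this lineage's genes. Xrcc4 was low throughout, at 2.73, 3.57 and 3.03 in MB_1224, MB_630 and MB_794 and at 2.56, 2.68, 3.19, 3.22 and 2.44 in MB_1187, MB_1197, MB_1206, MB_1207 and MB_706, against means of 3.88 in normal progenitors and 4.29 in cerebellum. The study describes these normal samples as age-matched controls of the same genotype, so they cannot be taken as wild type.

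Myc itself was at 11.47, 10.99 and 8.73 in tumors MB_1224, MB_630 and MB_794. The tumors without the gain were at 8.72, 8.30, 8.94, 7.34 and 8.85 (MB_1187, MB_1197, MB_1206, MB_1207 and MB_706). Tumor MB_794, listed with the gain, thus lay within the range of the tumors without it. The difference of 1.96 had p = 0.0536 in a 2-sided exact permutation test, in which the 56 possible splits of the tumors allow no p below 0.0179.

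No gene passed limma at an adjusted p of 0.05 (0 of 18193, 0.0%), and the methods' t-test after Benjamini-Hochberg adjustment called 0 as well. At an unadjusted p under 0.05, limma had 347 genes higher (1.91% of all) and 492 lower (2.7%) with the gain. The lowest adjusted p was 0.100, for Arid2 and for Atp8b1, a lipid flippase that stayed near the floor of the values in both groups. The groups did not overlap for 229 genes that were higher in all 3 tumors with the gain (1.26% of all) and for 370 that were lower (2.03%). These shares are the background for the counts that follow.

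The genes without overlap were spread unevenly over the genome. Chromosome 15 held 729 of the measured genes (4.01%), yet of the 40 genes with the lowest p-values it held 18, and every one of those 18 was lower in the tumors with the gain. Of its 708 genes other than Myc and the 20 measured genes that flank it, 102 were lower without overlap (14.4%), against 268 of 17464 genes on other chromosomes (1.53%). Genes that were higher without overlap made up 16 of these 708 (2.26%), against 205 of 17464 (1.17%). Among genes with a mean level above 5, a line used here for expressed genes, 83 of 289 on chromosome 15 were lower without overlap (28.7%), and no other chromosome passed 4.73%.

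**Figure D1:**
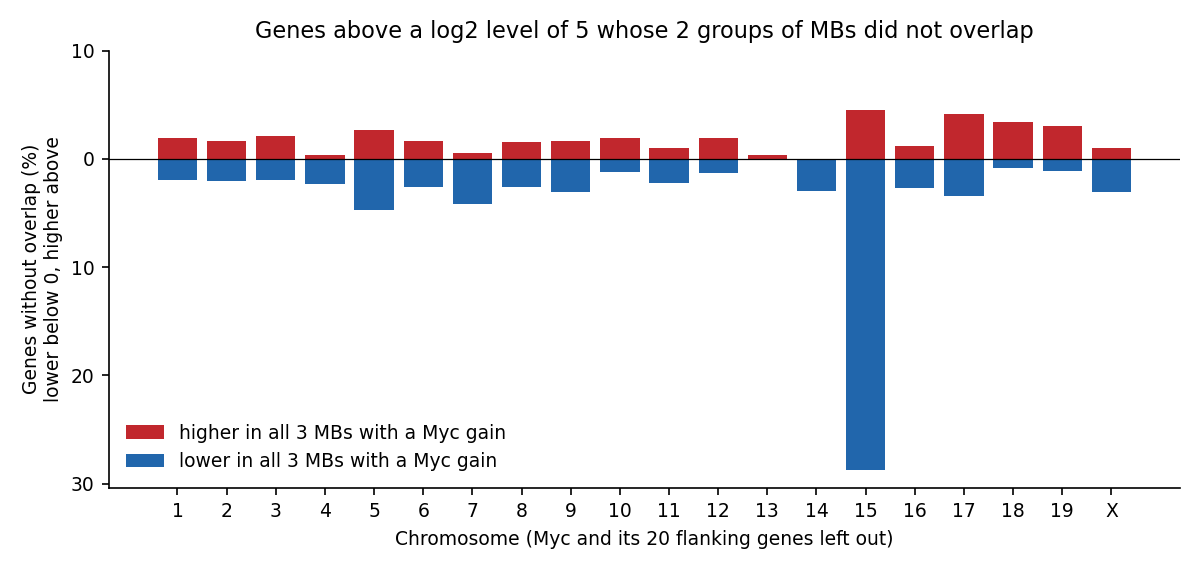
Share of genes, in percent, whose 3 MBs with a Myc gain all lay above (red, up) or all lay below (blue, down) the 5 MBs without, for each chromosome, over genes with a mean log2 level above 5 and without Myc and its 20 flanking genes. Chromosome 15 stands out by its 28.7% of lower genes.

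The mean level of these 289 genes was 7.41 ± 0.06 (SD) in the 3 tumors that had the gain and 7.67 ± 0.03 (SD) in the other 5, a difference of -0.25. All 3 tumors with the gain were below all 5 without, so the exact permutation p was 0.0179, the smallest that 3 against 5 tumors can give. Adjusted over the 20 chromosomes it was 0.357, which this design could not bring under 0.05. The other 19 chromosomes differed by -0.10 to 0.15, with unadjusted p from 0.0714 (chromosome 5, -0.05) upward.

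The lower genes lay on the distal side of Myc. Beyond the last flanking gene, at chr15:64086840-103538027 (GRCm38.p6), 204 genes had a mean level above 5. Their mean was 7.28, 7.01 and 7.18 in tumors MB_1224, MB_630 and MB_794, and 7.65, 7.57, 7.57, 7.61 and 7.66 in MB_1187, MB_1197, MB_1206, MB_1207 and MB_706. The groups did not overlap, and the gap between them was 0.29, wider than the range of 0.10 among the 5 tumors without the gain. The difference was -0.45 (7.16 ± 0.14 against 7.61 ± 0.04, SD over 3 and 5 tumors; exact permutation p = 0.0179, the smallest possible). This division of the chromosome was chosen after the profile along it had been seen.

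The lower level was shared by most of the genes there. In mean, 193 of the 204 were lower with the gain and 11 higher, where 50.9% of all 8289 expressed genes were lower. Without overlap, 83 were lower (40.7%) and 3 higher (1.47%), against 2.46% and 1.64% of the 7992 expressed genes on other chromosomes. The median difference was -0.50, or a ratio of 0.708 on the linear scale, with quartiles at -0.67 and -0.28. The median over expressed genes of the other chromosomes was -0.00. Tumor by tumor, 162, 187 and 194 of the 204 genes in MB_1224, MB_630 and MB_794 lay below the median of the tumors without the gain. In those 5 tumors, each set against the other 4, the count was 87 to 126.

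Windows of 5 Mb gave the shape of the change. From 75 to 100 Mb the mean deviation from the median of the tumors without the gain was -0.27 to -0.54 in MB_1224, -0.48 to -0.75 in MB_630 and -0.36 to -0.55 in MB_794. In each of these 5 windows all 3 tumors with the gain lay below the other 5, which stayed within -0.18 and 0.12. Past 100 Mb the tumors with the gain parted. There, MB_1224 was at 0.03, while MB_630 was at -0.72 and MB_794 at -0.38, and 12, 30 and 29 of the 30 genes lay below the median of the tumors without the gain. Tumor MB_630 was thus at least as low on the distal side as MB_794 and MB_1224. No complex rearrangement was listed for MB_630, and that list does not cover simpler copy number changes. Copy number was not measured on these arrays, so whether the lower levels go with fewer copies was not tested.

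**Figure D2:**
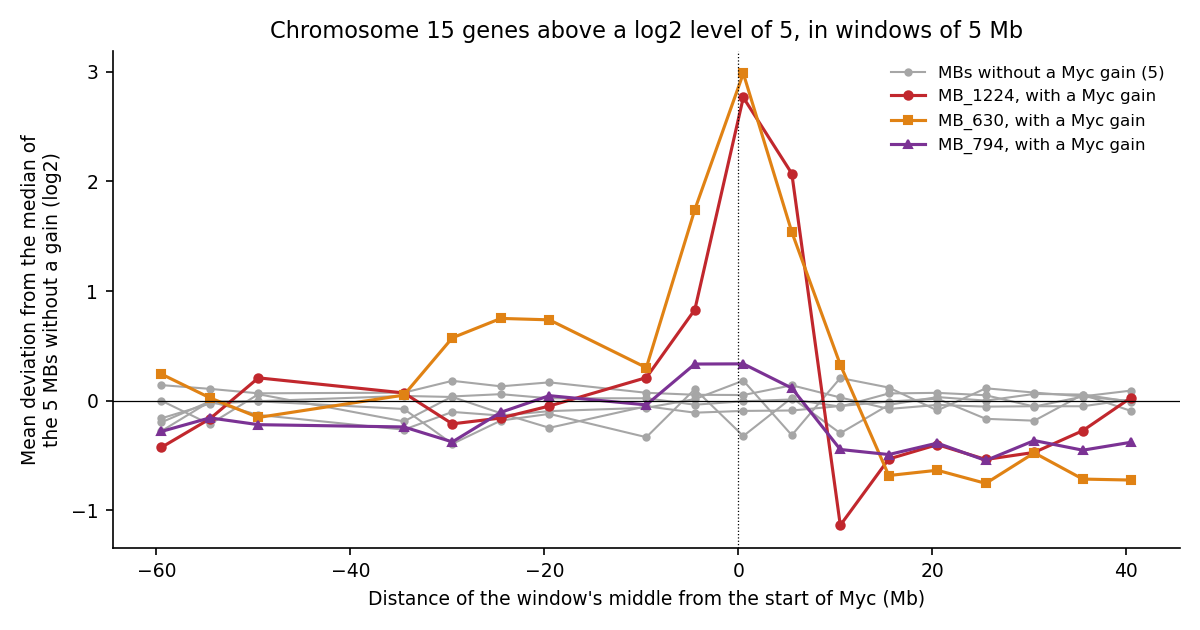
Mean deviation (log2) of chromosome 15 genes from the median of the 5 MBs without a Myc gain, in windows of 5 Mb, against the distance of each window's middle from the start of Myc in Mb; each line is 1 tumor. MB_1224 and MB_630 peak at Myc, while MB_794 is at 0.34 in that window and 0.33 in the one before it. All 3 tumors with the gain lie below the other 5 from about 15.5 Mb to 35.5 Mb beyond Myc, where MB_630 is at -0.48 to -0.75.

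Around Myc the same tumors were higher, and by unequal amounts. Of the 20 flanking genes, 7 were expressed, and their mean level was 9.60, 10.42 and 8.44 in MB_1224, MB_630 and MB_794 against 7.74 to 8.05 in the tumors without the gain. All 7 were higher without overlap. The deviation was 1.72 in MB_1224 and 2.54 in MB_630, but 0.56 in MB_794. Beyond the flanking genes, the window at 65 to 70 Mb was still at 2.07 in MB_1224 and 1.54 in MB_630, and at 0.12 in MB_794. In MB_1224 the step from higher to lower lay between Khdrbs3 (1.01) and Chrac1 (-0.91). In MB_630 it lay further on, after Ago2 (1.49). Adgrb1 (-0.825) comes next but spread from -1.51 to 0.91 without the gain, so the step is only roughly placed. The 4 genes from 70 to 75 Mb thus averaged -1.14 in MB_1224, and in MB_630 their mean of 0.33 spans the step. In MB_794, Phf20l1 was at 0.58 and Khdrbs3 already at -0.59.

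On the proximal side, 85 expressed genes had a mean of 7.93, 8.40 and 7.74 in MB_1224, MB_630 and MB_794 and of 7.72 to 7.93 in the others. The groups overlapped, and the difference of 0.23 had an exact permutation p of 0.161. Tumor MB_630 decided it. Its windows from 30 to 45 Mb were at 0.57 to 0.75, whereas MB_1224 and MB_794 were at -0.38 to 0.05. Without MB_630 the proximal difference was 0.04.

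Of the 10 genes of chromosome 15 outside the flanks with the largest differences without overlap, 6 lay close to the flanks and were higher. Derl1, a channel component for export of misfolded proteins from the endoplasmic reticulum, was at 8.10, 9.23 and 7.14 in MB_1224, MB_630 and MB_794 and at 6.16 to 6.88 without the gain. Fbxo32, the muscle atrophy ubiquitin ligase subunit atrogin, was at 7.62, 9.32 and 7.52 against 6.52 to 7.18. Efr3a, which anchors a lipid kinase at the plasma membrane, was at 10.81, 10.42 and 8.57 against 6.62 to 8.35. In each of them MB_794 was the lowest of the tumors with the gain, and MB_630 or MB_1224 the highest. Phf20l1, a reader of methylated lysines, Rnf139, a ubiquitin ligase, and Tatdn1, a predicted nuclease, differed by 1.56, 1.30 and 1.21. Rnf139 and Tatdn1 overlap on the chromosome, so they are neighbors of 1 locus.

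Of the 4 of these genes that were lower, Cacng2, the AMPA receptor subunit stargazin, was at 7.55, 7.23 and 7.87 in MB_1224, MB_630 and MB_794. Without the gain it was at 9.09, 9.01, 9.07, 8.74 and 9.28 in MB_1187, MB_1197, MB_1206, MB_1207 and MB_706. The gap between the groups exceeded the range within either, with a difference of -1.49 ± 0.17 (SE; limma unadjusted p = 9.16e-05, adjusted p = 0.333). Phf21b, a PHD finger protein, was at 9.46, 9.09 and 9.70 against 10.41 to 10.95. Mfng, a Fringe enzyme that adds sugars to Notch receptors, was at 6.85, 6.63 and 6.61 against 7.16 to 8.87. Marchf11, a membrane ubiquitin ligase far on the proximal side, was at 4.26, 4.51 and 3.005 against 4.80 to 5.69.

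Of the 18 genes of chromosome 15 among the 40 lowest p-values, 4 with known roles in chromatin or transcription were picked for description after their values had been seen. The others were of mixed function and include Arf3, a small GTPase of vesicle traffic, and St13, a cochaperone of HSP70. Arid2, a subunit of the PBAF chromatin remodeling complex at chr15:96287522, was at 7.87, 7.79 and 7.96 in MB_1224, MB_630 and MB_794 and at 8.36 to 8.43 without the gain. Its difference was -0.52 ± 0.04 (SE; limma adjusted p = 0.100). Yaf2, part of a variant Polycomb complex, was at 9.98, 9.96 and 10.004 against 10.37 to 10.60. Kansl2, of the NSL acetyltransferase complex, was at 7.12, 7.16 and 7.15 against 7.59 to 7.90. Ccnt1, cyclin T of the elongation factor that MYC is known to recruit, was at 7.54, 7.33 and 7.49 against 7.89 to 8.23. For each of these genes all 3 tumors with the gain were below all 5 without, and none passed the adjusted threshold. In such bulk tumor samples, fewer cells of a type and less RNA per cell cannot be told apart.

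**Figure D3:**
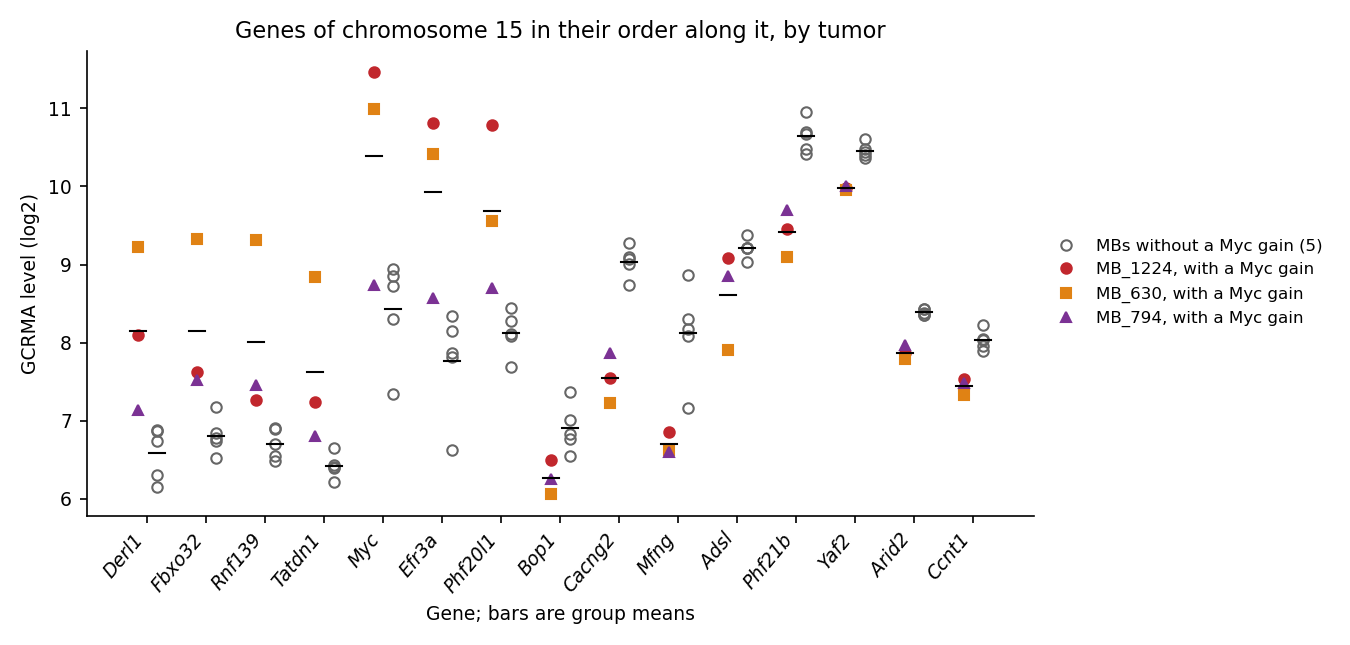
Log2 levels of 15 genes of chromosome 15, in their order along it, in each of the 8 tumors; black bars are group means. Genes near Myc, such as Efr3a, are higher with the gain (10.81, 10.42 and 8.57 against at most 8.35), and distal genes such as Cacng2 and Arid2 are lower in all 3.

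The normal samples put the distal level in context. The same 204 genes averaged 7.43 in both arrays of granule neural progenitors (GNPs), the cells from which such MBs can arise, and 7.35 and 7.36 in the 2 arrays of whole cerebellum. The 3 tumors with the gain (7.01 to 7.28) were below the normal samples, and the 5 without (7.57 to 7.66) above them. The 204 genes were kept by their level in the tumors alone, which favors genes that are higher in tumors than in normal samples. The normal level therefore cannot serve as a baseline between the groups. No test was made, since tissue and tumor differ in many other ways.

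Beyond chromosome 15, local shifts between the groups were smaller. Single tumors, with or without the gain, shifted by similar or larger amounts elsewhere. From 50 to 120 Mb of chromosome 12, the windows of MB_1207 were at -0.46 to -0.70. At 100 to 110 Mb of chromosome 13, MB_630 and MB_1207 were at 0.82 and 0.81. Of 231 windows of 10 Mb with at least 10 expressed genes on the other chromosomes, the mean deviation was lower in all 3 tumors with the gain in 1 and higher in all 3 in 5. The lower one was at 140 to 150 Mb of chromosome 5, where 8 of 55 genes were lower without overlap (14.5%). The tumors with the gain were at -0.26, -0.39 and -0.27 in MB_1224, MB_630 and MB_794, but MB_1207 was at -0.21, just above them. The highest median difference was 0.30, at 80 to 90 Mb of chromosome 17, where MB_794 (0.42) and MB_1224 (0.28) lay above the others and MB_630 (0.01) did not. The distal windows of chromosome 15 had medians of -0.35 to -0.54, with 39.5 to 52.4% of genes lower without overlap except in the last (6.67%).

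Among Myc's own network, only Mxd4, a repressive partner of MAX, differed without overlap. It was at 5.64, 5.77 and 5.69 in MB_1224, MB_630 and MB_794 and at 5.34 to 5.63 without the gain, a difference of 0.21 (limma adjusted p = 1.0) with a gap of 0.0096 between the closest tumors of the groups. Mycn, the paralog that drives growth of granule progenitors, was at 7.86, 8.14 and 8.46 with the gain and at 8.18, 8.41, 8.19, 9.46 and 7.40 without. The ranges overlapped, and tumor MB_1207 was the highest of all. Mycl was at 5.91, 5.34 and 7.20 against 5.64 to 6.83. Max, the obligate partner, was at 8.01, 8.09 and 8.32 against 7.65 to 8.37. The repressors Mxd1, Mxd3, Mxi1, Mnt and Mga differed by -0.11 to 0.26. Mlx and its partner Mlxip, which sense glucose, differed by 0.33 and -0.21, and all groups overlapped. Zbtb17, the cofactor MIZ, differed by 0.03, and Mlxipl was at the floor of the values, near 2.20, in all tumors.

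Targets of MYC showed no joint difference between these groups. The tumors without the gain had mean Myc and Mycn levels of 8.43 and 8.33. Normal progenitors averaged 6.98 and 5.86, and cerebellum 3.09 and 3.96. The comparison was thus not with tumors low in these genes. Of 27 measured genes in a list of known MYC targets, 0 passed limma's adjusted threshold and 0 were without overlap in either direction. The median difference was 0.07, beside -0.00 over all genes. Leaving out each tumor gave -0.05 (without MB_1224) to 0.19 (without MB_1207). Without MB_706, the tumor that stood apart in RNA quality, the median was 0.02. The highest differences were those of Eif4a1, a translation helicase (0.37, groups overlapping), and Hspe1, a mitochondrial chaperonin (0.24). For Eif4a1, MB_706 was at 11.81 and the rest without the gain at 12.81 to 13.16. The lowest were those of Rcc1, the exchange factor of RAN (-0.41), and Tfrc, the transferrin receptor (-0.32). Ncl, nucleolin, was at 9.97, 9.51 and 9.76 in MB_1224, MB_630 and MB_794 and at 9.33 to 9.98 without the gain. Odc1, which makes polyamines, was at 11.03, 10.49 and 10.76 against 10.64 to 10.93. The groups overlapped for both genes. The list's mean level was 9.44 to 9.89 with the gain and 9.33 to 9.95 without.

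Ribosome biogenesis, the best known output of MYC, gave the same picture over 43 genes, with a median of 0.06. Leaving out each tumor gave -0.07 (without MB_1224) to 0.16 (without MB_1207), and 0.03 without MB_706. Without overlap, 1 gene was higher and 1 lower. The higher gene was Wdr43, of the small subunit processome, at 9.63, 9.19 and 10.39 in MB_1224, MB_630 and MB_794 against 8.06 to 9.11. It lies on chromosome 17 at 71616178 to 71659031, within the window at 70 to 80 Mb where MB_794 and MB_1224 were also higher. The lower gene was Bop1, which processes large subunit RNA, at 6.49, 6.06 and 6.26 against 6.55 to 7.37, and it lies on the distal side of chromosome 15. Polr1c and Polr1b, subunits of RNA polymerase I, differed by 0.37 and -0.37 with overlapping groups. In nucleotide and polyamine synthesis (23 genes, median -0.00) no gene was without overlap. The lowest difference was that of Adsl (-0.60), a purine enzyme that is also on distal chromosome 15 and was at 9.08, 7.90 and 8.85 against 9.03 to 9.37. Glycolysis genes had a median of 0.10 over 17 genes, none without overlap.

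The E-box was searched in promoter sequences from RefSeq (GRCm38.p6), from 250 bases before to 50 after a start of the gene. That start need not be the outermost one. For Ldha the window lies inside the gene, which begins at 46842274. CACGTG reads the same on both strands. It was present for 1479 of 14452 measured genes with a sequence (10.2%) and for 8 of 24 MYC targets with one (33.3%). The median difference of expressed genes was 0.00 with the motif (844 genes) and -0.01 without, over 6825 genes. Among the MYC targets it was 0.09 with and -0.02 without. Promoters of 3 of these targets are shown, with every CACGTG in capitals, because they hold the site MYC is known to bind while their genes did not separate the groups. They are those of Cdk4, the G1 kinase (chr10:127063285-127063584, plus strand, 4 matches), Ldha, lactate dehydrogenase (chr7:46845554-46845853, plus strand, 2 matches), and Eif4a1 (chr11:69672374-69672673, minus strand, 1 match).
Cdk4: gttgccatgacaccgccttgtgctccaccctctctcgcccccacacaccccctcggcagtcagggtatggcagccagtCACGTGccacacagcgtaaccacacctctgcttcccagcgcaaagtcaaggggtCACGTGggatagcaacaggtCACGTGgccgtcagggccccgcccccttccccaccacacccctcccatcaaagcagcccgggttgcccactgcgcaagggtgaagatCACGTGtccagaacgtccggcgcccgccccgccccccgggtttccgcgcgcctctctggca
Ldha: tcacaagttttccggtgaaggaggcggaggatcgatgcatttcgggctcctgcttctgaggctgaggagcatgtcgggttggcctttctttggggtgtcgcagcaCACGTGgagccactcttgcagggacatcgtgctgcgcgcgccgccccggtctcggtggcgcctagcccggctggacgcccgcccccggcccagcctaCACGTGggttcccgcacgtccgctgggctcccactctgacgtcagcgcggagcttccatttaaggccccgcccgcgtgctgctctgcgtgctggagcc
Eif4a1: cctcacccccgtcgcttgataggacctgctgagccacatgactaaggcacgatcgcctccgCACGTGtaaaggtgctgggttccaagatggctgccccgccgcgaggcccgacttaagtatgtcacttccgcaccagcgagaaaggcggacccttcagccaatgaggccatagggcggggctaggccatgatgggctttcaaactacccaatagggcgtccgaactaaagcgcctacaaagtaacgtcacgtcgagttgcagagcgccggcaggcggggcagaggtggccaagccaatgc
Cdk4 was at 11.46, 11.12 and 11.16 in MB_1224, MB_630 and MB_794 and at 10.85 to 11.47 without the gain. Ldha was at 12.26, 11.57 and 11.18 against 11.10 to 12.17. Eif4a1 was at 13.07, 13.08 and 13.26 against 11.81 to 13.16. A match is a description of the letters and says nothing of binding in these tumors.

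Proliferation and lineage lists did not separate the groups either. Cell cycle lists had medians of -0.06 for entry into S phase (20 genes), -0.03 for DNA replication (28) and -0.10 for mitosis (23). In these 3 lists the only gene without overlap was Ccnd1, a D-type cyclin of the G1 phase, at 11.36, 11.24 and 11.35 in MB_1224, MB_630 and MB_794 against 11.43 to 12.02. It was named because it was the only one, after its values were seen. Over all 28 lists, including markers of other cell types, none had a mean level that placed all 3 tumors with the gain above or below the other 5. List medians ran from -0.14 (damage checkpoint and replication stress) to 0.41 (Purkinje cell markers). In the damage list, Timeless, which protects replication forks, was lower without overlap at 7.82, 7.17 and 7.55 against 7.84 to 8.28. Rad1, of the checkpoint clamp, differed by -0.51 with overlapping groups, and it lies on proximal chromosome 15.

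**Figure D4:**
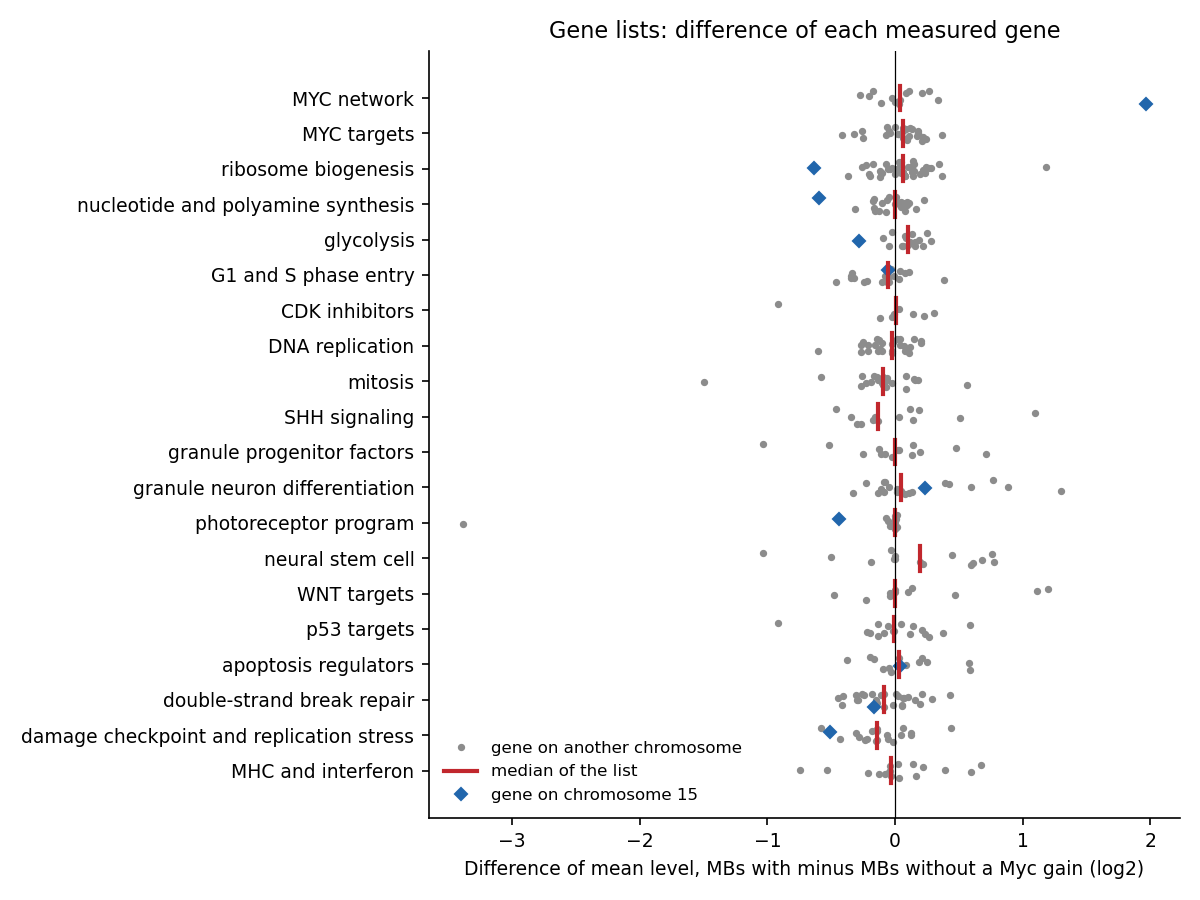
Difference of mean level (log2, MBs with minus MBs without a Myc gain) of each measured gene in 20 gene lists; red bars are list medians, blue diamonds are genes on chromosome 15. All medians lie between -0.14 and 0.20. The lowest genes of ribosome biogenesis (Bop1) and of nucleotide and polyamine synthesis (Adsl) are on chromosome 15, while the MYC targets have no gene there.

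Among the granule lineage and stem cell lists no gene passed limma's adjusted threshold, and Neurod1 and Prom1 were without overlap. Neurod1, a factor that drives granule neuron differentiation, was at 13.11, 13.42 and 13.17 in MB_1224, MB_630 and MB_794 and at 12.27 to 12.87 without the gain, a difference of 0.60 (limma unadjusted p = 0.00775, adjusted p = 0.791). Prom1, the stem cell surface protein prominin, was at 9.77, 9.64 and 9.26 against 7.95 to 9.17. Both were higher in all 3 tumors, within lists whose medians were 0.05 and 0.20. Otx2, a homeobox factor of MB and of photoreceptors, was at 2.23, 5.83 and 8.75 with the gain and at 7.51 to 9.70 without. It was thus near the floor in MB_1224 and lower in MB_630, while MB_794 lay among the tumors without the gain, so the difference of -3.38 had limma unadjusted p = 0.0525. Among SHH signaling genes (13, median -0.13, none without overlap), Gli2, a transcription factor of the pathway, differed by -0.35, and Hhip, an inhibitor of it, by 1.09. Cdkn1a, the p53 target p21, was at 5.72, 4.89 and 6.08 against 5.06 to 7.76.

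Outside chromosome 15, the genes named for large differences without overlap had varied functions. Whether the genes without overlap there group by function was not tested. The largest difference, -2.79, was that of Znf41-ps, a pseudogene, at 4.04, 3.18 and 2.80 in MB_1224, MB_630 and MB_794 against 5.46 to 6.71. It was left out of the named genes, although the plan left out only gene models and clone names. Spaca1, a membrane protein of the sperm acrosome, was at 5.29, 4.91 and 6.09 in MB_1224, MB_630 and MB_794 and at 2.96, 2.45, 3.58, 2.61 and 2.84 in MB_1187, MB_1197, MB_1206, MB_1207 and MB_706. The tumors without the gain were low, and MB_1197 and MB_1207 were close to the floor of about 2.20, though none was at it. The difference of 2.54 ± 0.35 (SE; limma adjusted p = 0.377) may be understated so near the floor. Spaca1 averaged 2.35 in GNPs and 2.20 in cerebellum. Shisal2b was higher by 2.36, Actc1, cardiac actin, by 2.23, Kcnk1, a potassium leak channel, by 1.81, and Plxna2, a semaphorin receptor, by 1.28. Tumor MB_630 was the highest in all 4 of these genes.

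Genes that were lower differed by similar amounts. Spns2, a transporter that exports sphingosine 1-phosphate, was at 7.30, 7.29 and 7.47 against 8.81, 8.80, 9.68, 9.03 and 8.84. The tumors with the gain lay within 0.18 of each other, with a gap of 1.33 to the rest (difference -1.68 ± 0.22, SE; limma adjusted p = 0.377). Lsp1, an actin-binding protein of leukocytes, was at 3.59, 3.53 and 4.12 against 5.02 to 5.96. Pgf, a growth factor of the VEGF family, was at 5.48, 4.52 and 4.69 against 5.96 to 7.10. Cyp11a1, which starts steroid synthesis from cholesterol, was at 8.26, 6.74 and 7.23 against 8.34 to 9.42, while GNPs and cerebellum were at 3.94 and 4.03. Crispld1, Rin1, Trim68, Frmpd3, Serpinb8, Kcnh8, Dpysl5 and Ier5l differed by -1.41 to -1.84. Adi1, of methionine salvage, differed by -2.64 on the probe set used, at 3.48, 3.96 and 6.38 against 6.85 to 7.83. On its probe set of highest signal, which may share sequence with other genes, the difference was 0.0056, so the probe sets of Adi1 disagree.

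**Figure D5:**
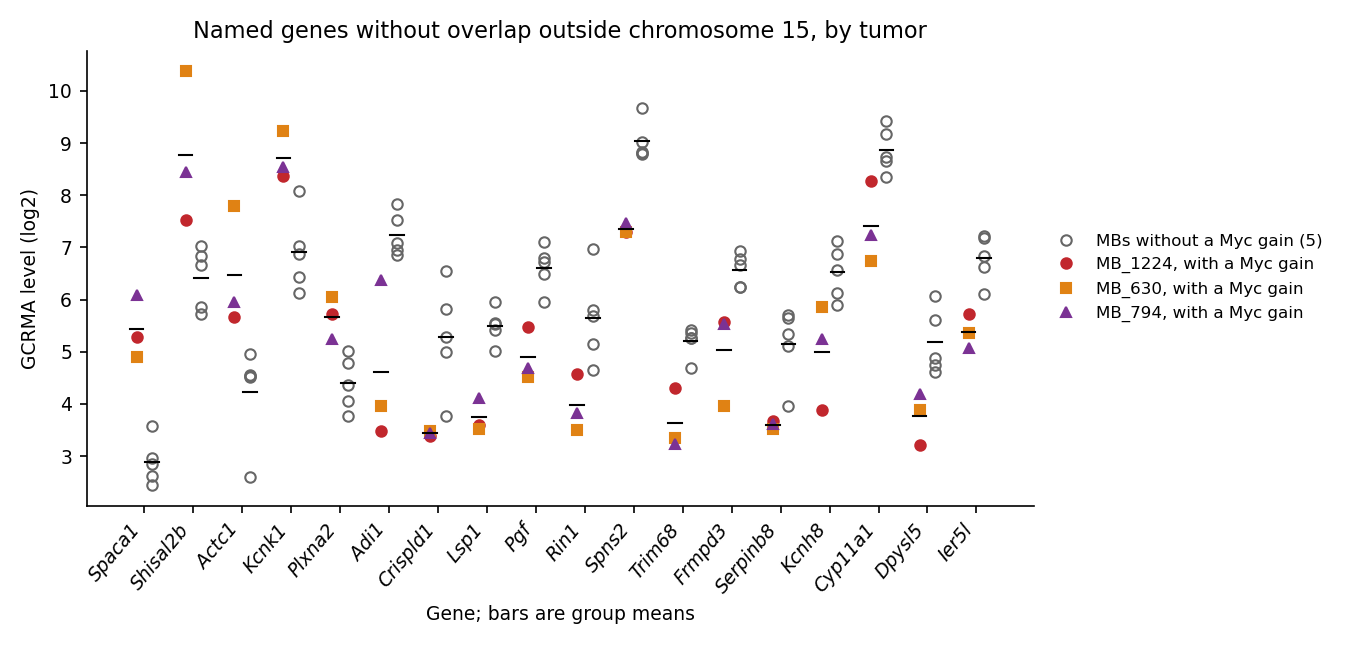
Log2 levels of the 18 genes outside chromosome 15 that were among the 15 most positive or 15 most negative differences without overlap (a pseudogene and gene models left out), in each of the 8 tumors; black bars are group means. Spaca1 and Spns2 show wide gaps (5.29, 4.91 and 6.09 against at most 3.58, and at most 7.47 against at least 8.80).

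Markers of other cell types varied between tumors, most of all in MB_630. The mean level of 9 mesenchymal markers was 6.34 in MB_630 and 3.28 and 3.86 in MB_1224 and MB_794, against 3.51 to 4.19 without the gain. That of 7 Purkinje cell markers was 6.06 in MB_630 and 3.38 and 3.74 in MB_1224 and MB_794, against 3.17 to 4.17. That of 8 endothelial markers was 4.57, 2.82 and 3.07 against 2.67 to 3.63. Microglia markers (12 genes) ranged from 5.83 to 6.96 with the gain and from 5.998 to 6.95 without. Of the blood markers, the globin gene Hba-a1 was at the floor in all tumors. Over these lists and the astroglia markers, Gja1, the astroglial connexin, was higher without overlap at 6.54, 7.59 and 6.51 against 5.55 to 6.37, and Col1a1, a collagen chain, was so at levels near the floor. The part of these cells in the single-gene differences was not tested. The distal difference of chromosome 15 was -0.38 without MB_630, with 92 of the 204 genes lower without overlap, and -0.44 without MB_706.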

How the data were processed

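RNA of 12 samples (Trizol, per the labels) had been hybridised to Affymetrix mouse arrays, 1 array each. The deposited values are log2 levels of 45101 probe sets, which the authors had normalized by GCRMA, with a floor of 2.20. After 64 control probe sets were left out, 34945 probe sets were paired with 1 gene by GEO's platform annotation, 932 with several and 9160 with none. Probe sets of a gene were averaged, those marked s or x (which can share sequence with other genes) only where a gene had no other (290 of 18193 genes). Positions are those of RefSeq, GRCm38.p6, found for 18145 genes.

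The groups follow the tumor numbers in the study's list of copy number gains. Genes were tested with limma 3.58.1 (R 4.3.3) on the 8 tumors, 2-sided, and p-values were adjusted by Benjamini-Hochberg across the 18193 genes. The fit was tested on simulated data. Single values were compared by exact permutation over 56 splits, in Python 3.11.15. A gene was called without overlap when all 3 tumors with the gain lay above, or all below, all 5 without. The precision is limited by the number of arrays.

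The members and the 28 gene lists were chosen with earlier results of these data known. Named genes were Myc's network, the 15 most positive and 15 most negative differences without overlap in genes reaching a level of 5 (since 0 passed limma; gene models, clones and pseudogenes left out), the 2 largest and 2 smallest differences of a list, and 10 genes of chromosome 15 outside the flanks. Of the listed genes, 37 had no probe set of their own here. The alternatives were other probe set rules, quantile or median scaling, array weights, a trended robust fit, a filter at a level of 5, all 12 arrays, rearrangement as a covariate, the methods' t-test, and subsets of the tumors.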

Additional observations from a re-analysis of the deposited data

Results flagged for a closer look

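Among the 5 tumors without the gain, 1 tumor stood apart from the other 4 in 7 of the 77 values looked at, by a gap that Dixon's test finds in about 1 of 20 such groups by chance. Tumor MB_1207 was low in Actc1 (2.59, others 4.51 to 4.96), in Trim68 (4.69, others 5.26 to 5.42), in the mean of the granule progenitor factors (8.72, others 8.98 to 9.07) and in the mean of the Purkinje cell markers (3.17, others 3.94 to 4.17). Tumor MB_1206 was high in Spns2 (9.68, others 8.80 to 9.03). Tumor MB_706 was low in Mxi1 (6.82, others 8.65 to 9.32), and its control transcripts were 2.93 brighter at the 3' end. Tumor MB_1197 differed in Mlxipl (2.23, others 2.20), a gene at the floor. No cause was tested.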

How the results depend on the processing

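With 3 tumors against 5, only large and even differences could pass. Counts of calls were 1 (Arid2) with the probe set of highest signal and 1 (Arid2) with 12 arrays in 4 groups, 726 for the methods' t-test unadjusted, and 0 in the other settings that kept all tumors. Leaving out each tumor gave 0 to 6 calls (6 without MB_1224, 3 without MB_794, 2 without MB_630, 1 each without MB_1197 and MB_1207). Without overlap, 582 genes were higher and 690 lower in the tumors listed as cultured, 590 and 731 in those of Xrcc4 c/- mice, and 1104 and 1165 in those with rearrangements, since fewer tumors overlap less easily. Leaving out each tumor gave 336 to 611 higher and 464 to 831 lower. The chromosome 15 mean difference was -0.23, -0.26 and -0.25 in these 3 subsets and the distal one -0.42, -0.45 and -0.38, each with an exact p of 0.1, the smallest that 6 tumors in 2 groups of 3, or 5 tumors, can give. Leaving out each tumor gave -0.22 to -0.29 for the chromosome, -0.38 to -0.52 for the distal genes and 86 to 128 distal genes lower without overlap (128 without MB_1224). Proximally the range was 0.04 to 0.36. The Myc difference ran from 1.43 to 2.79 and had an exact p of 0.0476 without MB_794. Of the named genes, Adi1 changed sign with the probe set of highest signal (0.0056). List medians depended on single tumors. Those of the MYC targets and ribosome biogenesis were 0.19 and 0.16 without MB_1207, and 0.16 and 0.15 without MB_630. In the tumors with rearrangements they were 0.15 and 0.12. Without MB_1224 those of the MYC targets and ribosome biogenesis were -0.05 and -0.07, that of mitosis -0.23, and those of the mesenchymal and Purkinje cell markers 0.71 and 1.13. Without MB_630 the mesenchymal and Purkinje medians were -0.14 and -0.41, and those of mitosis and granule neuron differentiation 0.03 and -0.06. In the tumors with rearrangements the Purkinje and granule neuron medians were -0.19 and -0.0097, and in those of Xrcc4 c/- mice the MYC target and ribosome biogenesis medians were -0.02 and -0.04. The distal and proximal divisions were chosen after seeing the data. No paired analysis was possible because the labels give no shared replicate numbers.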
